A study of Mus musculus with 27 samples.

Results

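Mitosis and chromosome segregation genes were followed in mouse limb bud cells as they formed cartilage cells in culture. The members are 45 named genes, and each probe set (a group of short oligonucleotides read as 1 value) annotated to one of them alone was taken from all 3 array types. This gave 81 probe sets for 43 of the 45 genes, out of 36701 probe sets and 15944 genes in the series. Ccnb1, which encodes cyclin B1, and Hmmr, which encodes a spindle-associated protein, had no probe set annotated to them alone and were not analysed here. A probe set was tested when its mean rescaled signal reached 200 in at least 1 group, which 67 of the 81 did, and every one of the 43 genes had at least 1 such probe set. Of these genes, 22 had more than 1 probe set.

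The series compares 3 groups of 3 RNA samples, with replicate numbers 1, 3 and 4 in each. The mesenchymal group holds multipotential mesenchymal cells of the limb bud, whose titles carry no day, the day 1 group chondroprogenitors and the day 3 group chondroblasts. Total RNA of each sample was hybridised to Affymetrix array types A, B and C, which makes 27 arrays of 9 samples. The labels give the limb's subridge region as the source of the cells and fibroblasts as the contaminating cell type, and purity was estimated over the same range for all arrays. No strain, genetic change, age or added agent is given. Nothing in the labels says that samples came from separate cultures or animals, so p-values describe the spread among these 9 samples, and that spread could be technical.

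In a dividing cell, CDK1 bound to B-type cyclins starts mitosis, and the Polo-like and Aurora kinases then drive spindle assembly and chromosome alignment. The spindle checkpoint holds back the anaphase-promoting complex, a ubiquitin ligase, until each kinetochore is attached. The complex, with its activator CDC20, then marks securin and the cyclins for destruction. Many of these genes are transcribed together late in the cell cycle, so that their RNA levels are widely read as a sign of proliferation. In the limb bud, distal mesenchyme proliferates, and mesenchymal cells condense before they form cartilage.

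Probe sets of 11 mitosis genes were lower in day 3 chondroblasts than in mesenchymal cells, and none was higher. At an adjusted p under 0.05 (limma, Benjamini-Hochberg over 23545 probe sets), 11 of 67 member probe sets (16.4%) were lower and 0 were higher. Among all probe sets tested, 4.03% were lower and 6.54% higher, or 10.6% in either direction. Those that fell belong to Ccnb2, Cks2, Plk1, Bub1, Cenpa, Kif11, Kif20a, Kif2c, Smc4, Cdc20 and Pttg1, and their log2 changes lay between -1.27 and -0.63. In RNA from many cells, fewer dividing cells and less of each RNA per cell cannot be told apart. At an unadjusted p under 0.05, 28 members were lower and 1 higher, against 12.2% and 12.4% of all probe sets. With 1 probe set per gene, the median log2 change of the 43 genes was -0.54, and 40 of them had a change below 0. The median of all 12205 genes was -0.05, and 53.6% had a change below 0. Over probe sets, 54 of the 67 members (80.6%) had a change below 0, against 55.4% of all. In 29 members (43.3%) all day 3 values lay below all mesenchymal values, and in 2 all lay above, against 14.3% and 13.3% of all probe sets.

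Scan batch moved with these groups. On array type A, which holds all 11 probe sets that fell, no batch held both day 3 and mesenchymal arrays: batch 1 held mesenchymal replicates 1 and 3 with day 1 replicate 1, batch 2 held the other two day 1 arrays with all of day 3, and mesenchymal replicate 4 stood alone. With scan batch as a block, 1 of 67 members was lower at day 3 (Cenpa, log2 change -1.87 ± 0.45, limma adjusted p = 0.044), against 1.38% of all probe sets. On type B all day 3 arrays formed a batch of their own, so there batch and day 3 cannot be told apart, and a random block on that type is no check of the day 3 change. The blocked day 3 estimate on type A rests on day 1 replicate 1 as its only link between batches. Mesenchymal replicate 4, alone in its batch, carries no weight in it. On type C, mesenchymal replicates 1 and 4 each stood alone in a batch. Blocked estimates against mesenchymal cells on that type therefore use mesenchymal replicate 3 alone. The median log2 change of the 43 genes was -0.48 with the block and -0.54 without it. These medians include 7 genes on type B, whose day 3 changes the random block left nearly as they were. The likeness of the 2 medians is in part fixed by that. All 11 estimates stayed below 0 with the block, and Kif11 (-0.04) and Bub1 (-0.36) came nearest to 0. Of the 67 tested probe sets, 10 turned sign with the block at day 3 against mesenchymal cells, 6 of them to above 0, and 51 were below 0 with it. Probe sets on type B are counted in the 67 and the 51 too.

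**Figure D1:**
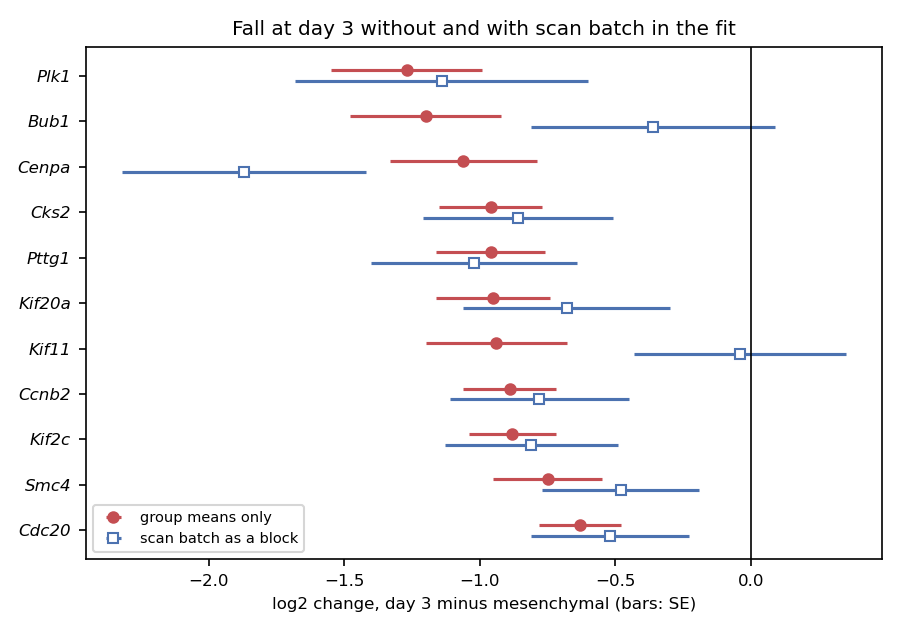
Log2 change at day 3 minus mesenchymal cells (x axis, bars are standard errors) for the 11 probe sets that fell, from the fit on group means (red circles) and from the fit with scan batch as a block (open blue squares). The blocked estimates have wider errors and all lie below 0, with Kif11 at -0.04 and Cenpa at -1.87.

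Promoter sequences are shown because these genes are widely described as sharing promoter elements and 11 of them fell here. Many late cell cycle genes carry a cell cycle genes homology region (CHR), for which TTTGAA is one form, near CCAAT boxes, which NF-Y binds. RefSeq promoter windows on build GRCm38.p6 (250 bases before to 50 after the annotated start) were at hand for 38 of the 45 genes. The motifs TTTGAA and CCAAT, which can share at most 1 base where they meet, were searched on both strands. The 120 bases before the start are printed for 5 genes that fell and for Cdk1, which did not pass the test, with matches in capitals. ATTGG and TTCAAA are the same motifs on the other strand.
Ccnb2 (chr9:70421555-70421674, minus strand): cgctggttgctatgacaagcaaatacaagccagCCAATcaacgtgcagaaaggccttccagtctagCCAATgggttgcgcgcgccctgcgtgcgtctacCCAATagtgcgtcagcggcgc
Cdc20 (chr4:118437344-118437463, minus strand): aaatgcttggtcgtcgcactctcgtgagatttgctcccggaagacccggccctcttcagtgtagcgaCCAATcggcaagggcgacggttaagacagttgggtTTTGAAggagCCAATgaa
Kif11 (chr19:37376262-37376381, plus strand): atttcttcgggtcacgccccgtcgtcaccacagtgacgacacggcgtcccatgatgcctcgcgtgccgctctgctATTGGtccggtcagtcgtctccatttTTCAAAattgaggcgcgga
Bub1 (chr2:127831860-127831979, minus strand): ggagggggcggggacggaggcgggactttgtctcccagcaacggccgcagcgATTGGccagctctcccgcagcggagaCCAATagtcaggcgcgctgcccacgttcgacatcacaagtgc
Cks2 (chr13:51645112-51645231, plus strand): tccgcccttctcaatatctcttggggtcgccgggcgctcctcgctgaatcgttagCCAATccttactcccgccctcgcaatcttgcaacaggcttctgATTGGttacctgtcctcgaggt
Cdk1 (chr10:69352913-69353032, minus strand): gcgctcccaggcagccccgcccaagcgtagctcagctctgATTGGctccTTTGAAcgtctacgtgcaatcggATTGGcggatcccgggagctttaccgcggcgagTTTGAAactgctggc

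Within the 300-base windows, TTTGAA was found in 27 of the 38 mitosis genes (71.1%), against 18.1% of 27025 promoters with 1 per gene. CCAAT was found in 30 of 38 (78.9%), against 37.9% of all promoters, and 20 of 38 (52.6%) held at least 2 copies, against 12.2%. The motif TATAAA, searched in the same way, was found in 1 of the 38 (2.63%), against 14.2% of all promoters. By position, 36.8% of the mitosis genes had a CCAAT between 75 and 50 bases before the start, against 7.28% of all, and 26.3% had a TTTGAA in the first 25 bases after it, against 1.25%. Of DNA replication genes, which also act in dividing cells, 3 of 25 (12%) held TTTGAA and 15 of 25 (60%) held CCAAT. Set against the change in signal, TTTGAA was in 6 of the 9 genes lower at day 3 that have a promoter here and in 20 of the other 27 measured members, and CCAAT was in 7 of 9 and 21 of 27. These are matches of letters, and binding was not measured.

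**Figure D2:**
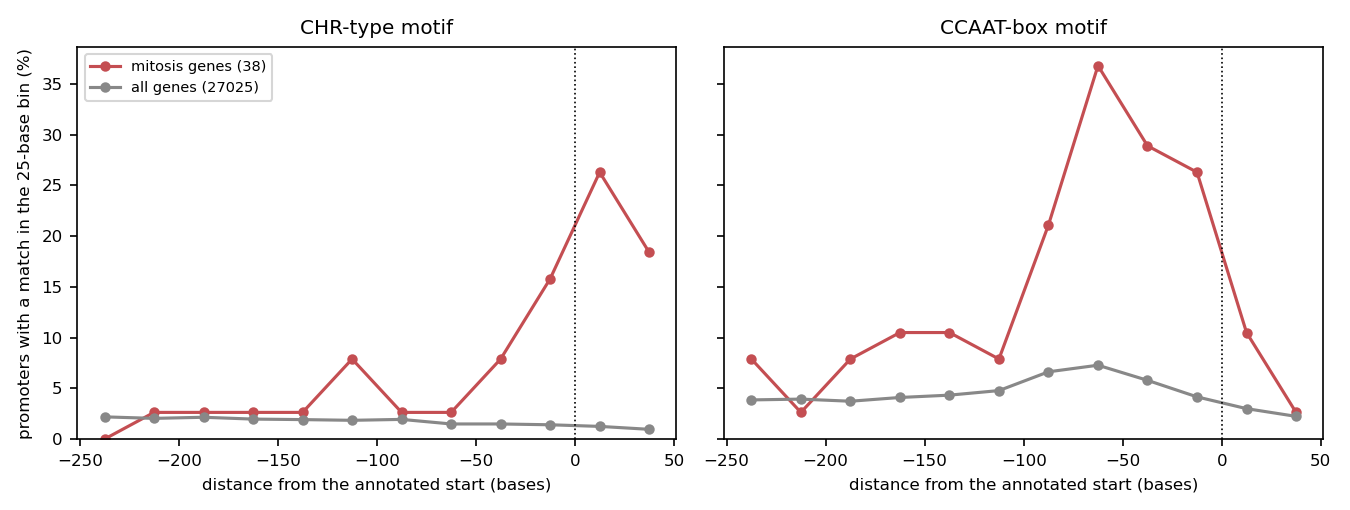
Share of promoters (y axis, percent) with a match in each 25-base bin by distance from the annotated start (x axis, bases), for 38 mitosis genes (red) and 27025 genes (grey), with the CHR-type motif at left and the CCAAT-box motif at right. The mitosis genes peak at 26.3% just after the start for the first motif and at 36.8% between 75 and 50 bases before it for the second.

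Among the mitotic cyclins, CDK1 and its activators, Ccnb2 and Cks2 fell at day 3 and Cdk1 itself did not pass the test. Ccnb2, which encodes cyclin B2, had rescaled signals of 5018, 6211 and 4953 in mesenchymal cells, 4335, 3395 and 4348 at day 1, and 2415, 2966 and 3294 at day 3. Each day 3 value lay below each day 1 value, and those below each mesenchymal value. The log2 change at day 3 against mesenchymal cells was -0.89 ± 0.17 (SE, n = 3 per group, limma adjusted p = 0.0054), which is 1.86-fold lower on the scale of signal plus 50, and with the scan block it was -0.78 (adjusted p = 0.22).

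Cks2, a small subunit that binds CDK1, fell by day 1 and was as low at day 3. Its signals were 3423, 3504 and 4539 in mesenchymal cells, 1855, 2011 and 1771 at day 1, and 1953, 2445 and 1477 at day 3. The mesenchymal values stood apart from the others, while day 1 and day 3 overlapped. The log2 change was -1.0 ± 0.19 at day 1 (limma adjusted p = 0.011) and -0.96 ± 0.19 at day 3 (adjusted p = 0.0069), and with the scan block -0.88 (adjusted p = 0.15) and -0.86 (adjusted p = 0.21).

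Cdk1 showed signals of 3326, 3287 and 3021 in mesenchymal cells, 3381, 2917 and 2609 at day 1, and 2584, 2968 and 2881 at day 3. Day 3 values lay below all mesenchymal ones, but by little: the log2 change was -0.19 ± 0.15 (limma adjusted p = 0.48), and 0.06 with the scan block. Ccna2, which encodes cyclin A2, had 1327, 1736 and 1342 at day 3, against 2048, 1839 and 2075 in mesenchymal cells, without overlap but short of the threshold (log2 change -0.43 ± 0.16, limma adjusted p = 0.11). Cdc25c and Cdc25b encode phosphatases that switch CDK1 on. Cdc25c had changes of -0.57 and -0.28 in its 2 probe sets and Cdc25b had 0.22, and none passed the test.

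**Figure D3:**
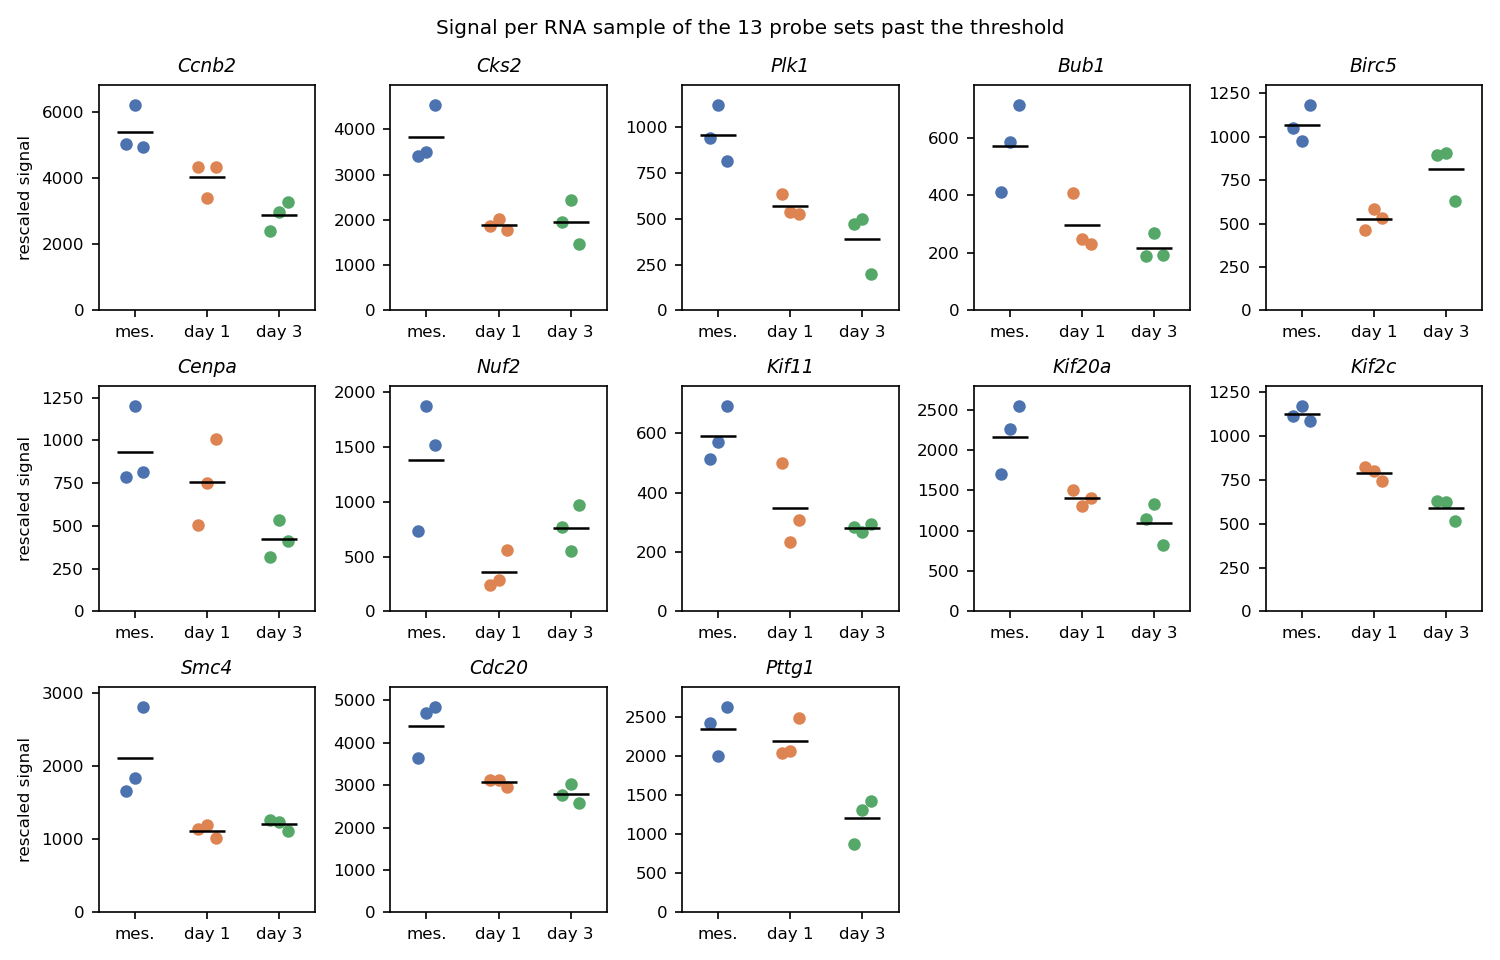
Rescaled signal (y axis, from 0) of each RNA sample in mesenchymal (mes., blue), day 1 (orange) and day 3 (green) cells for the 13 probe sets past the threshold in at least 1 comparison, with black bars at group means. Ccnb2, Plk1, Kif2c and Kif20a have lower group means at each time, while Cks2, Smc4 and Cdc20 are about as low at day 1 as at day 3, Pttg1 is low at day 3 alone, and Birc5 and Nuf2 are lowest at day 1.

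Of the mitotic kinases, Plk1 was the gene with a probe set past the threshold. PLK1 drives centrosome maturation, spindle assembly and mitotic exit. Its probe set that fell had signals of 939, 1120 and 814 in mesenchymal cells, 636, 538 and 527 at day 1, and 473, 498 and 201 at day 3. The 3 groups did not overlap, and the day 3 change was -1.27 ± 0.28 (log2, limma adjusted p = 0.013), and -1.14 with the scan block (adjusted p = 0.28). Without mesenchymal replicate 3 this call was lost. Its name carries the suffix f, used where probes may be shared with related sequences, and 2 brighter Plk1 probe sets had smaller changes of -0.48 and -0.70 (limma adjusted p = 0.13 and 0.073).

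Aurka, the Aurora kinase of the spindle poles, had signals of 565, 737 and 574 at day 3, against 869, 986 and 1017 in mesenchymal cells. The groups did not overlap, yet the change of -0.58 ± 0.18 did not pass the test (limma adjusted p = 0.061). Aurkb, the catalytic subunit of the chromosomal passenger complex, was measured by 2 probe sets that differed in sign. The type A probe set had 161, 1132 and 545 in mesenchymal cells, the widest spread of the kinases, and a day 3 change of 0.38 (-0.36 with the scan block), while the type C probe set had -0.67. Nek2, a centrosome kinase, had a day 3 change of -0.36. Neither Aurkb nor Nek2 passed the test.

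In the spindle checkpoint, Bub1 fell. BUB1 is a kinase that sits at the kinetochore. Its signals were 411, 584 and 713 in mesenchymal cells, 408, 247 and 230 at day 1, and 190, 269 and 192 at day 3. Day 3 lay below all mesenchymal values, and day 1 replicate 1 was close to mesenchymal replicate 1, which was scanned with it. The day 3 change was -1.20 ± 0.28 (log2, limma adjusted p = 0.016), and -0.36 with the scan block (adjusted p = 0.72). The call was lost without mesenchymal replicate 3 and without day 3 replicate 1. The other two Bub1 probe sets were below the filter.

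The remaining checkpoint genes did not pass the test. Bub1b, which encodes BUBR1, had 914, 1058 and 872 at day 3, against 928, 1704 and 1710 in mesenchymal cells, and a change of -0.54. In Mad2l1, the gene of the checkpoint protein MAD2, mesenchymal replicate 1 had 571 and the other two 1423 and 1608, and the day 3 change was -0.66 ± 0.37. The kinase gene Ttk had -0.29. Bub3, whose product carries BUB1 to the kinetochore, had -0.13 and 0.37 in its 2 tested probe sets.

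Birc5 was lower at day 1 and did not pass the test at day 3. It encodes survivin, which targets the passenger complex to centromeres. Its signals were 1048, 977 and 1183 in mesenchymal cells, 463, 583 and 530 at day 1, and 897, 906 and 631 at day 3. Day 1 values lay below all others and day 3 lay between. The day 1 change was -0.96 ± 0.19 (log2, limma adjusted p = 0.014), the day 3 change against mesenchymal cells was -0.39 ± 0.19 (adjusted p = 0.24), and day 3 against day 1 gave 0.57 (adjusted p = 0.24). Within the scan batch that held day 1 replicate 1 with mesenchymal replicates 1 and 3, the day 1 difference was -1.05, but with the scan block its adjusted p was 0.10, and without day 1 replicate 1 the call was lost. Incenp, the scaffold of the complex, had 5 tested probe sets with day 3 changes between -0.98 and 0.24, and none passed.

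At the centromere, Cenpa fell at day 3. It encodes the histone H3 variant that marks the site of kinetochore assembly. Signals were 784, 1200 and 815 in mesenchymal cells, 505, 752 and 1007 at day 1, and 320, 534 and 411 at day 3. Day 1 overlapped with mesenchymal cells and day 3 did not. The day 3 change was -1.06 ± 0.27 (log2, limma adjusted p = 0.027), and Cenpa was the one member past the threshold with the scan block. Leaving out mesenchymal replicate 3, day 3 replicate 1 or day 3 replicate 4 ended the call.

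Nuf2, a subunit of the NDC80 complex that holds microtubules at the kinetochore, was lower at day 1 in 1 of its 2 probe sets. The type C probe set had 736, 1871 and 1520 in mesenchymal cells, 239, 289 and 556 at day 1, and 765, 551 and 972 at day 3. Day 1 lay below all mesenchymal values, and its change was -1.77 ± 0.42 (log2, limma adjusted p = 0.024). With the scan block it was -2.30, but that estimate sets day 1 against mesenchymal replicate 3 alone, the highest of its group. Mesenchymal replicates 1 and 4 each stood alone in a batch on type C. The call was lost with the block, and also when mesenchymal replicate 3 or 4, or day 1 replicate 1 or 3, was left out. The type B probe set had a smaller change of -0.47 (limma adjusted p = 0.32). Ndc80 itself ranged from 1349 to 3840 in mesenchymal cells and had a day 3 change of -0.47 ± 0.43. Cenpe, a kinetochore motor, had -0.48 and Cenpf, a large kinetochore protein, had -0.65, neither past the threshold.

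Among spindle motors and assembly factors, 3 of 19 tested probe sets were lower at day 3, against 4.03% of all probe sets, those of Kif11, Kif20a and Kif2c. Kif2c encodes MCAK, which takes microtubule ends apart and helps correct attachments. Its signals were 1114, 1172 and 1088 in mesenchymal cells, 826, 799 and 743 at day 1, and 630, 624 and 516 at day 3. The groups were narrow and did not overlap. At day 3 the change was -0.88 ± 0.16 (log2, limma adjusted p = 0.0046), and -0.81 with the scan block (adjusted p = 0.19).

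Kif20a encodes a motor of the central spindle. Its probe set that fell had 1698, 2255 and 2545 in mesenchymal cells, 1506, 1300 and 1410 at day 1, and 1150, 1329 and 821 at day 3. Both later groups lay below every mesenchymal value. Against mesenchymal cells the change was -0.95 ± 0.21 (log2, limma adjusted p = 0.011), or -0.68 with the scan block (adjusted p = 0.36). This probe set too has the suffix f, and a dimmer one without it had -0.31 (limma adjusted p = 0.40).

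Kif11 encodes the motor that pushes spindle poles apart. Its signals were 513, 571 and 692 in mesenchymal cells, 501, 235 and 307 at day 1, and 286, 267 and 294 at day 3. Day 3 was low in all samples, while day 1 replicate 1, scanned with mesenchymal replicates 1 and 3, was nearly at their level. The day 3 change was -0.94 ± 0.26 (log2, limma adjusted p = 0.037), and it lost the threshold in 11 of 17 alternative settings, among them each one that left out a mesenchymal or day 3 sample. The type C probe set of Kif11 had 0.03.

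The other spindle genes did not pass. Tpx2, an activator of Aurora A on spindle microtubules, came nearest, with a change of -0.60 ± 0.19 (limma adjusted p = 0.056) in its brightest probe set. Kif4 had a change of -0.66 and Kifc1 of -0.72 (0.37 with the scan block), while Kif22 (-0.51 and 0.07) and Tacc3 (-0.36 and 0.55) had probe sets that differed in sign. Kifc1 is a minus-end motor and its probe set on type C reached 200 only through 1 mesenchymal array, with 465, 43 and 113 in that group. Prc1, which bundles microtubules of the central spindle, had -0.02 and 0.06. Kif23, which encodes a motor that acts in cytokinesis, had -0.08, 1.17 and 0.45.

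Smc4, the core ATPase subunit of condensin, fell by day 1. Signals were 1661, 1840 and 2804 in mesenchymal cells, 1136, 1192 and 1021 at day 1, and 1263, 1232 and 1111 at day 3. Both later groups lay below all mesenchymal values and overlapped each other. The log2 change was -0.85 ± 0.20 at day 1 (limma adjusted p = 0.028) and -0.75 ± 0.20 at day 3 (adjusted p = 0.030), or -0.60 and -0.48 with the scan block (adjusted p = 0.23 and 0.40). Each of the 2 calls was lost in 7 of 17 alternative settings, which included leaving out mesenchymal replicate 3 or 4.

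The commonly used proliferation markers Mki67 and Top2a did not pass the test. Mki67, which encodes the Ki-67 protein of the chromosome surface, had 339, 617 and 452 at day 3, against 605, 335 and 1222 in mesenchymal cells. The groups overlapped, and the change was -0.43 ± 0.36 (limma adjusted p = 0.50). A second Mki67 probe set had -0.68. Top2a, the topoisomerase that untangles sister chromatids, had 616, 718 and 635 at day 3, against 733, 1013 and 1242 in mesenchymal cells, with no overlap and a change of -0.54 ± 0.26 (limma adjusted p = 0.22). With the scan block both turned sign, Top2a to 0.29 and the first Mki67 probe set to 0.13. Smc2, the partner of Smc4, had 3 tested probe sets with changes of -0.44 (0.43 with the scan block), -0.29 and -1.33, the last with a limma adjusted p of 0.061.

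At the exit from metaphase, Cdc20 and Pttg1 fell. Cdc20, the activator of the anaphase-promoting complex, had 3639, 4697 and 4839 in mesenchymal cells, 3118, 3116 and 2954 at day 1, and 2771, 3028 and 2583 at day 3. Later groups were tight and below all mesenchymal values. The day 3 change was -0.63 ± 0.15 (log2, limma adjusted p = 0.019), or -0.52 with the scan block (adjusted p = 0.36), and the call was lost without mesenchymal replicate 3, day 3 replicate 1 or day 3 replicate 4.

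Pttg1 encodes securin, the inhibitor of separase. Its signals were 2422, 1998 and 2624 in mesenchymal cells, 2036, 2056 and 2485 at day 1, and 879, 1303 and 1426 at day 3. Day 1 overlapped with mesenchymal cells, and day 3 was below both. The day 3 change was -0.96 ± 0.20 against mesenchymal cells (log2, limma adjusted p = 0.0084), or -1.02 with the scan block (adjusted p = 0.16), and -0.86 against day 1 (adjusted p = 0.054, or 0.0046 with day 1 and day 3 samples paired by replicate number). Its suffix s marks probes that can match several transcripts, and a type C probe set of Pttg1 with wide spread had 0.37 ± 0.51. Espl1, the gene of separase, had a day 3 change of -0.52 and Ube2c, a ubiquitin-conjugating enzyme of the complex, had -0.30, neither past the threshold.

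None of the cytokinesis genes passed. Racgap1 and Ect2 encode regulators of the contractile ring and had day 3 changes of -0.62 and -0.67. Anln encodes the ring protein anillin. Its type A signals were 738, 800 and 777 at day 3, against 694, 815 and 643 in mesenchymal cells, with a change of 0.10 ± 0.17 (limma adjusted p = 0.77), and its dimmer type C probe set had 1.1 ± 0.54.

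**Figure D4:**
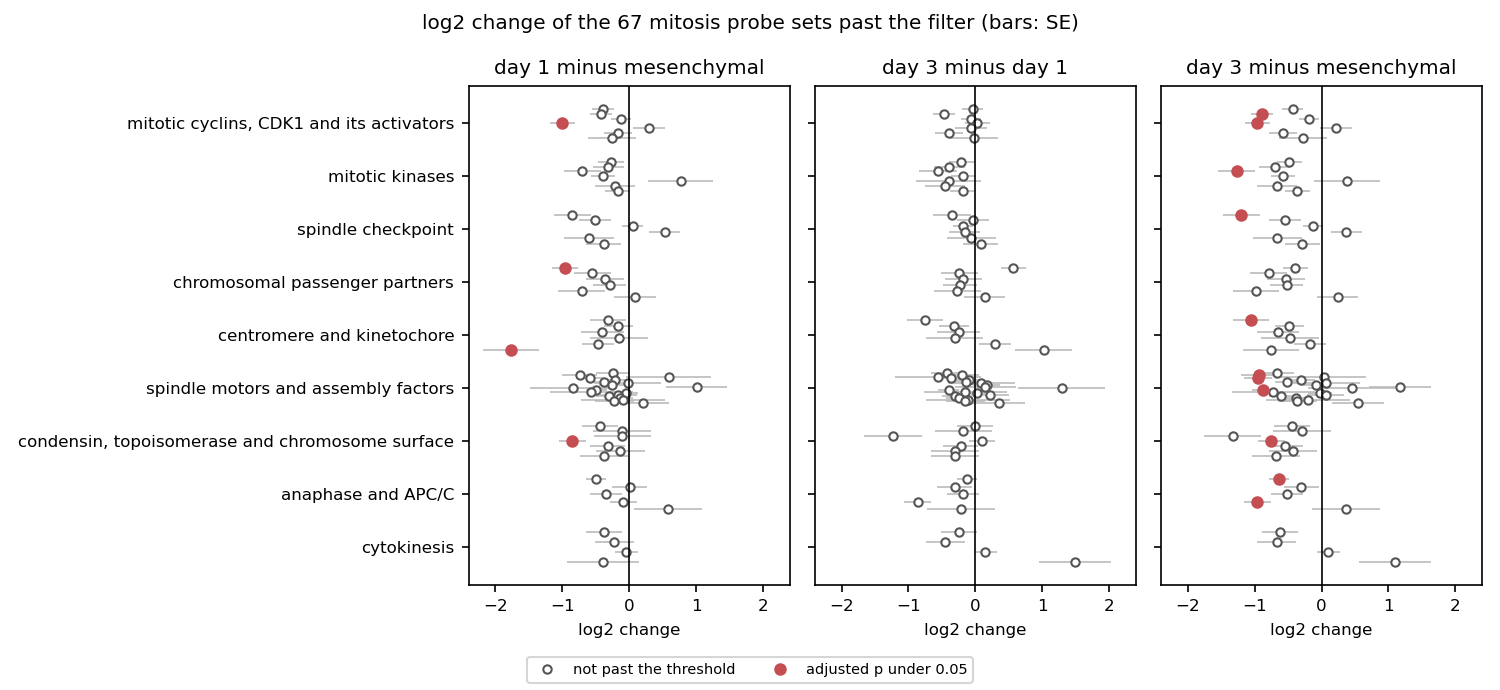
Log2 changes (x axis, bars are standard errors) of the 67 tested probe sets, grouped by role (y axis), for day 1 minus mesenchymal cells (left), day 3 minus day 1 (middle) and day 3 minus mesenchymal cells (right). Filled red points have an adjusted p under 0.05: 4 at left, 0 in the middle and 11 at right, all below 0.

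Between day 1 and mesenchymal cells, 4 of 67 probe sets (5.97%) were lower and 0 higher, those of Birc5, Cks2, Nuf2 and Smc4. Of all probe sets, 1.18% were lower and 3.61% higher, or 4.79% in either direction. With the scan block, 0 of the 67 were lower, against 0.42% of all probe sets. At an unadjusted p under 0.05, limma found 13 lower and 2 higher without the block, against 8.12% and 10.5% of all probe sets. All day 1 values lay below all mesenchymal values in 16 members (23.9%), against 11.5%, and 0 members lay above, against 11.8%. A change below 0 was found in 57 of 67 (85.1%), against 54.1%. The median log2 change of the 43 genes was -0.34, with 39 below 0, and that of all genes was -0.02. Within the scan batch on type A that held both groups, the 34 member genes tested there had a median of -0.26, with 26 below 0, and all genes had a median of 0.01.

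Between day 3 and day 1, no member passed the adjusted threshold. Limma called 0 of 67 lower and 0 higher, against 0.484% and 1.13% of all probe sets, or 1.61% in either direction. At an unadjusted p under 0.05 it found 5 lower and 3 higher, against 5.07% and 5.76%. All day 3 values lay below all day 1 values in 11 members and above them in 3, against 9.51% and 9.04%, and 51 of 67 (76.1%) had a change below 0, against 53.5%. The median log2 change of the 43 genes was -0.19, with 35 below 0, against -0.05 for all genes. In the type A batch that held all day 3 arrays and day 1 replicates 3 and 4, the member median was -0.13 and that of all genes -0.07. Deviations of same-numbered day 1 and day 3 samples from their group means correlated weakly, at 0.107 to 0.251, and the labels do not state a pairing. With the replicate number as a block in a fit of these 6 samples, 2 of 67 members were lower and 0 higher. The shares of all probe sets were 2.02% and 2.92%. Those were Pttg1 (-0.86 ± 0.13, limma adjusted p = 0.0046) and Cenpa (-0.75 ± 0.18, limma adjusted p = 0.048). Both calls rest on a pairing by number that is uncertain. Day 3 replicate 4 correlated at 0.237 with mesenchymal replicate 1, a sample of another number. Whether the second step differed from the first was tested directly, in a contrast chosen after the data were seen. It called 0 of 67 members, against 1.09% of all probe sets, and 5 (7.46%) at an unadjusted p under 0.05, against 10.3%, so its share was not above the background. Birc5 came nearest, with a limma adjusted p of 0.054. The moderated F test over the 3 groups called 11 of 67, against 8.95% of all probe sets.

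The median over the 43 genes, relative to the mesenchymal mean of each, was -0.13, 0.05 and 0.14 in mesenchymal replicates 1, 3 and 4, -0.30, -0.31 and -0.36 at day 1, and -0.58, -0.33 and -0.65 at day 3. Mesenchymal samples were all above the others, and day 3 replicate 3 lay at the level of day 1. Mesenchymal replicate 1 was the lowest of its group for 52.2% of the 67 member probe sets, against 35.5% of all probe sets, day 1 replicate 4 for 47.8%, against 38.4%, day 3 replicate 1 for 46.3%, against 29.4%, and day 3 replicate 4 for 40.3%, against 39.9%. The 18S ribosomal RNA signal was high in mesenchymal replicate 1 (27447), day 1 replicate 4 (33264) and day 3 replicate 4 (19946), while the other 6 samples, day 3 replicate 1 among them, lay between 1623 and 5631. Without the 3 samples of high 18S signal, 17 member probe sets were lower at day 3 and 6 at day 1, against 3.74% and 1.19% of all probe sets.

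**Figure D5:**
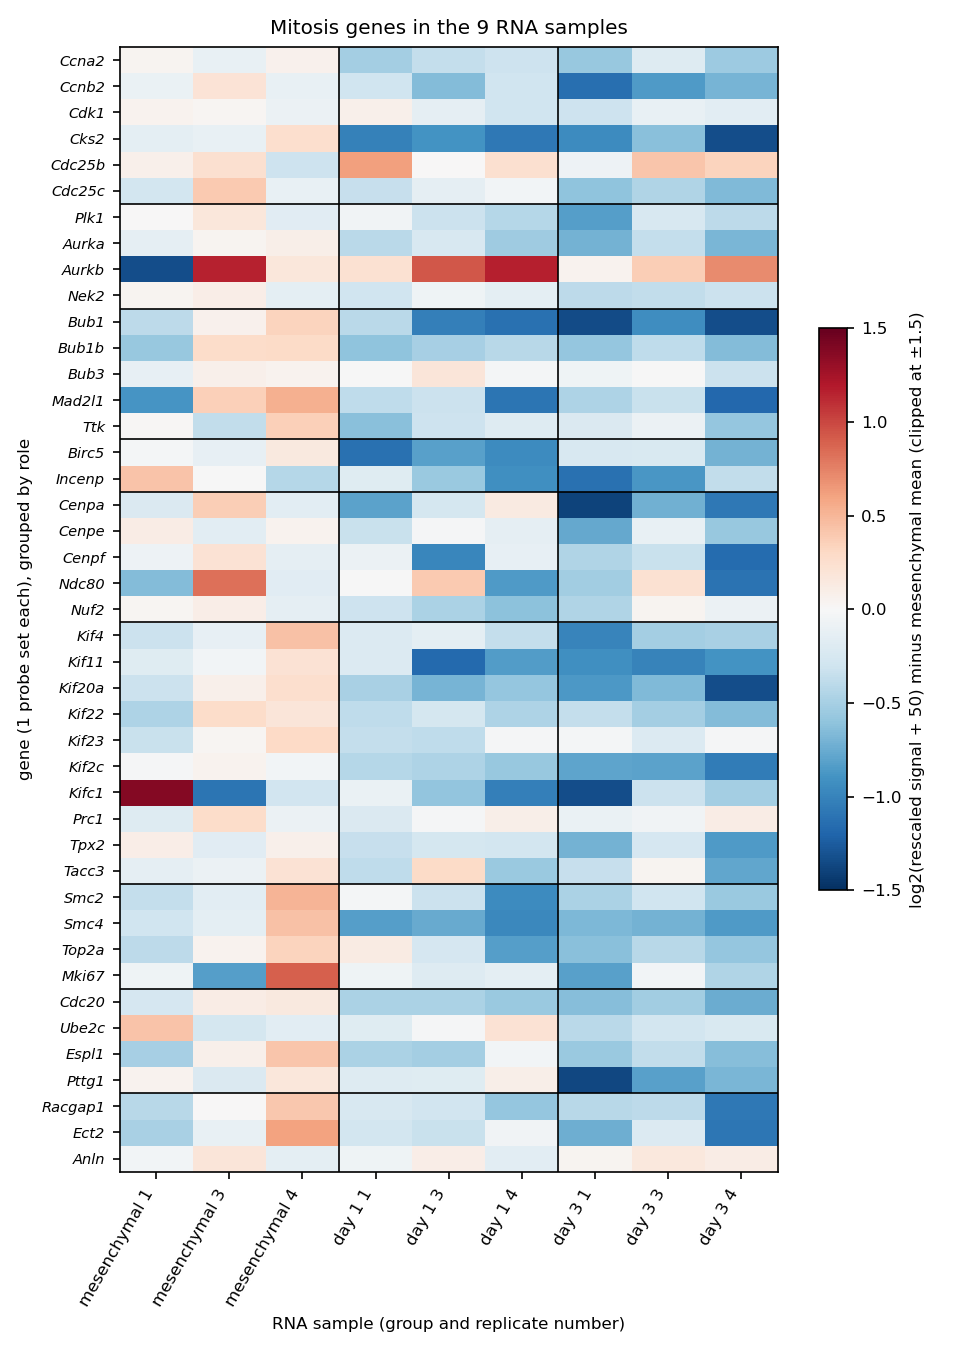
Log2 of rescaled signal plus 50 for 43 mitosis genes (rows, 1 probe set each, black lines between roles) in the 9 RNA samples (columns), minus each gene's mesenchymal mean, with blue for lower and red for higher and colours clipped at 1.5 either way. Most rows are blue at day 3, where the sample medians are -0.58, -0.33 and -0.65, while Anln, Prc1 and Bub3 stay pale and Aurkb is variable.

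Other genes of mitosis were read from fixed lists, with 1 probe set per gene. Among genes with a value, 4.79% of all 12205 were lower at day 3 than in mesenchymal cells. Of the 6 other condensin subunits, Ncapd2 (-1.09 ± 0.21, limma adjusted p = 0.0036) and Ncapd3 (-0.69, adjusted p = 0.041) were lower and 0 higher. Both are on type B, where day 3 and its scan batch cannot be told apart. Of 14 cohesin genes, Cdca5 was the 1 that passed. It encodes sororin, which protects cohesion, and had 222, 284 and 368 at day 3, against 783, 680 and 575 in mesenchymal cells (log2 change -1.11 ± 0.23, limma adjusted p = 0.0091). Cdca5 was already lower at day 1, with a change of -1.31 (limma adjusted p = 0.0062), where 1.36% of all genes were lower.

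Of 28 other kinetochore and centromere genes, 1 was lower at day 3, Zwint (-0.99 ± 0.19, limma adjusted p = 0.0058). At day 1, 1 was lower, Cenpw (-1.01, limma adjusted p = 0.045). Of all genes, 4.79% were lower at day 3 and 1.36% at day 1, so the share of this list at day 3 was not above the background. Of 22 other spindle and cytokinesis genes, 4 were lower at day 3: Ran, the GTPase that guides spindle assembly (-0.78), Kif15 (-0.94), the microtubule destabiliser Stmn1 (-0.88) and Ckap5 (-0.83). The list of 16 FOXM1, B-MYB and DREAM regulators held E2f4 (-0.60) and Tfdp2 (-0.94), and 0 of 12 mitotic inhibitors and phosphatases passed. With the scan block on type A, Zwint was lower at day 3 (limma adjusted p = 0.026), and Cdca5, Ran, Stmn1 and Ckap5 did not pass there. At day 1 with the block, Cdca5 passed (limma adjusted p = 0.0465) and Cenpw, on type B, did not (adjusted p = 0.106). Kif15, E2f4 and Tfdp2 are on type B and had no such check at day 3. The probe sets of Cdca5 and Kif15 carry the suffix f and that of Zwint the suffix s, so their probes may match other sequences too.

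In the anaphase-promoting complex, 3 subunits were higher at day 3 and an inhibitor was lower. Of all genes, 8.68% were higher at day 3. Of 15 genes, Anapc4, Anapc11 and Cdc16, all subunits of the complex, were higher at day 3 by 0.84, 0.85 and 1.05 on the log2 scale (limma adjusted p = 0.014, 0.019 and 0.017). None passed at day 3 with the scan block. Anapc4 was already higher at day 1 (0.86, limma adjusted p = 0.0215, or 0.175 with the block) and changed by -0.02 from day 1 to day 3. It was the 1 gene of the list higher at day 1, against 4.56% of all genes. Cdc16 had 3065, 2747 and 1646 at day 3, against 1312, 1077 and 1043 in mesenchymal cells, with no overlap. Fbxo5, which encodes the inhibitor EMI1 of the complex, was lower, with 853, 1124 and 444 at day 3, against 1289, 2025 and 2116 in mesenchymal cells (-1.17 ± 0.29, limma adjusted p = 0.020). Fbxo5 is on type B, where day 3 and its scan batch cannot be told apart. The median of the list was 0.05.

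Genes of DNA replication, which copy the chromosomes before mitosis, were read from a list of their own. Of 28 genes, 12 were lower at day 3 and 0 higher, against 4.79% and 8.68% of all genes, with a median log2 change of -0.67. Cdt1, which loads the replicative helicase, had 1014, 972 and 944 at day 3, against 2589, 2612 and 3234 in mesenchymal cells. It lay lower at each step, by 0.70 between mesenchymal cells and day 1 and by 0.77 between day 1 and day 3, and its log2 change over both was -1.47 ± 0.15 (limma adjusted p = 4.86e-05). Fen1 and Mcm5 were lower by changes of -1.41 and -1.15. With the scan block, Cdt1 and Mcm5 were the 2 of the 28 past the threshold at day 3, where 1.38% of all probe sets were lower.

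Markers of some other cells moved with the groups. Of 6 tested ectoderm and epithelium markers, 1 was higher and 0 lower at day 3 than in mesenchymal cells. Skeletal muscle markers were higher in 1 of 4 and lower in 0. The summed signal of erythroid markers was 6891 to 20072 at day 3, against 116812 to 254943 in mesenchymal cells, and 6 of 7 tested markers were lower. It was 9490 to 117393 at day 1. Of 7 endothelial markers, 4 were lower and 1 higher, with sums of 2784 to 3085 at day 3, against 4134 to 4778 in mesenchymal cells, and Cdh5 had 20, 7 and 12, against 384, 483 and 624. Macrophage markers were higher in 4 of 8, with sums of 3882 to 4172, against 1930 to 3234. Fibroblast markers were higher in 7 of 8, with sums of 19701 to 23793, against 4917 to 6080. Of all genes, 4.79% were lower and 8.68% higher at day 3 than in mesenchymal cells. With the scan block, 6 erythroid markers were lower, and 2 endothelial markers were lower and 0 higher. With it, 2 macrophage markers were higher and 1 lower, and 3 fibroblast markers were higher. No marker was listed at 0 in these lists. Their part in the changes of the mitosis genes was not tested.

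The labelled cell types were checked in the same way. Chondrocyte markers were higher at day 3 in 11 of 12 tested, with sums of 62336 to 68235 at day 3, against 4753 to 5734 in mesenchymal cells. Col2a1, a defining cartilage collagen gene, was below the filter in every group. Of 9 tested limb mesenchyme markers, 3 were lower and 1 higher at day 3, and Meis2 was below the filter. Of all genes, 4.79% were lower and 8.68% higher at day 3. With the scan block, 7 chondrocyte markers were higher at day 3, and 1 limb mesenchyme marker was lower and 1 higher.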

How the data were processed

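The deposited values are linear intensities, 1 for each probe set of an array, made by the authors with MAS5 per the submitters' processing notes. Neither its version nor its settings are stated in the labels or file headers. The deposited arrays had a 2% trimmed mean of 1500.3 to 1500.9, so they had been scaled. Each was rescaled to 500, and log2(signal + 50) was computed here from the deposited signals. The 66 control probe sets of each array were dropped. R 4.3.3 with limma 3.58.1 (lmFit, eBayes with trend) was run on group means of all 9 samples, 1 fit per array type, with Benjamini-Hochberg adjustment over all 3 types. A gene was represented by 1 probe set, type A before B before C, then by the highest mean signal. Gene names came from the platform annotation, updated to RefSeq. Scan batches came from the arrays' experiment records. For arrays, precision is limited by their number, 3 per group. Same-numbered samples' deviations from group means correlated at 0.107 to 0.251 between day 3 and day 1 (all 3 pairs over 0.1). The numbers were therefore taken to pair those groups in a fit added after the data were seen. The main results between day 3 and day 1 come from the unpaired fit of all 9 samples. With mesenchymal cells the same-numbered samples correlated at -0.202 to 0.062 and were not taken as pairs. The pairing comes from these correlations, not from the labels. Between day 3 and day 1, samples of different number reached at most 0.081. Mesenchymal replicate 1, however, correlated at 0.237 with day 3 replicate 4 and at 0.195 with day 1 replicate 4. These are the 3 samples of high 18S signal, and the value of 0.251 is that of day 1 and day 3 replicate 4. Whether these correlations come from the 18S difference was not tested. Of 9 samples, 5 correlated best with their own number, so the pairing is uncertain.

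The members and lists were chosen with earlier results of these data known. Named are all members past the threshold, a fixed set of mitosis genes, up to 3 genes per list and comparison, and other members so that each is accounted for. Alternatives were another pseudocount, filter, normalization, array weights, scan and replicate blocks, all probe sets of a gene averaged, and leaving samples out.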

Additional observations from a re-analysis of the deposited data

How the results depend on the processing

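The counts of lower members were 4 at day 1 and 11 at day 3 against mesenchymal cells, and 0 at day 3 against day 1. With scan batch as a block they were 0 at day 1 and 1 at day 3 against mesenchymal cells, and over all probe sets 566 and 1143 were called, against 1128 and 2489 without it, while the F test called 0 members. With array weights, 20 members were lower at day 3 against mesenchymal cells, and at day 3 against day 1 2 were lower and 1 higher. The F test called 17, and over all probe sets 2005, 1131 and 4246 were called at day 1 against mesenchymal cells, day 3 against day 1 and day 3 against mesenchymal cells. A filter of 400 gave 1 lower at day 3 against day 1. Without the 3 samples of high 18S signal, chosen after seeing the data, 17 were lower at day 3. With the replicate number as a block over all 9 samples, 3 and 9 members were lower at day 1 and day 3 against mesenchymal cells. The F test then called 7. Same-numbered samples correlated at -0.202 to 0.062 in those comparisons, and at 0.107 to 0.251 between day 3 and day 1. At day 3 against day 1, that block gave 0 lower members and 258 calls over all probe sets. A fit of the 6 day 1 and day 3 samples alone, added after seeing the data, gave 2 and 1162, against 0 and 380 without pairing.

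Leaving out 1 sample at a time gave 1 to 6 lower members at day 1, 0 to 1 at day 3 against day 1 and 5 to 14 at day 3 against mesenchymal cells (5 without mesenchymal replicate 3, 6 without day 3 replicate 1). The F test called 3 to 12. All calls ranged over 555 to 1242, 167 to 441 and 1457 to 2656 probe sets. The median of the member genes ranged over -0.427 to -0.241, -0.285 to -0.122 and -0.667 to -0.42, with -0.667 without mesenchymal replicate 1. No called probe set changed sign in any setting. Among the 10 probe sets whose day 3 change against mesenchymal cells turned sign with the scan block, Cdk1 came to 0.06, Top2a to 0.29, Mki67 to 0.13, Smc2 (type A) to 0.43, and Kifc1, Tpx2, Incenp, Kif11 and Kif23 on type C to 0.37, 0.78, -0.21, -0.09 and -0.69. The change of Mki67 ran from -0.85 to 0.01 when 1 sample was left out (0.01 without mesenchymal replicate 4). The type A probe set of Aurkb gave -0.18 with array weights, -0.36 with the scan block, -0.29 to 0.96 with 1 sample left out (-0.29 without mesenchymal replicate 1) and -0.45 without the 3 samples. In the blocked fit, mesenchymal replicate 4 carried no weight on type A, where it stood alone in its batch. On type C, mesenchymal replicates 1 and 4 each stood alone, so day 3 was set against mesenchymal replicate 3 there. Further causes of these shifts were not tested.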
